A study of Homo sapiens with 36 samples.

Results

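The androgen response of the LNCaP line sgT33-5_MC_F2, called F2 here, was measured by sequencing of polyadenylated RNA after 6 h with 5 nM R1881, a synthetic androgen, against 6 h with the solvent DMSO. It rests on 6 of the 36 libraries of the series, 3 with R1881 and 3 with DMSO, chosen by the line and treatment in their titles. LNCaP is an androgen-sensitive prostate cancer cell line derived from a lymph node metastasis. Before treatment, all cells had spent 3 days in medium with 5% charcoal-stripped serum, which holds little steroid, so the DMSO libraries show cells deprived of hormone. The other LNCaP lines, sgT33-5_MC_C2 (called C2), sgT33-5 and NT3, received the same treatments, with 3 libraries in each group, and serve as comparisons. A list of androgen-regulated genes was taken from NT3 cells of 42D, an enzalutamide-resistant derivative of LNCaP that the series also contains. The labels expand none of these names. Because the series title speaks of loss of TRIM33, the tag sgT33-5 is taken to mean a TRIM33 guide RNA, and NT3 a guide with no target. The labels do not say whether F2 grew from a single cell. If it did, its values describe that clone and not the guide.

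The androgen receptor is a transcription factor that an androgen releases from its chaperones and sends to the nucleus. There it binds DNA as a dimer, at paired short motifs, together with pioneer factors such as FOXA1 and with coactivators or corepressors. In luminal cells of the prostate it drives secreted proteases, lipid synthesis and secretory functions, and it lowers other genes. TRIM33 is a ubiquitin ligase of the TIF1 family that binds chromatin.

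The F2 libraries held 16327028 to 18700056 counts, of which 4.29% to 5.79% fell on mitochondrially encoded genes. Levels are given in CPM (counts scaled to a common library total after TMM correction), not divided by gene length. TRIM33, the presumed target of the guide, stood at 52.8, 59.2 and 61.9 CPM in F2 with R1881, against 41.7, 42.1 and 43.4 CPM in F2 with DMSO. The groups did not overlap, and the log2 fold change was 0.45 with a standard error (SE) of 0.08 (edgeR adjusted p = 0.0002). The same contrast in NT3 gave 0.43. Of 16 luminal prostate markers, all were expressed, and their summed level was 9686 to 11180 CPM with R1881 and 6794 to 7614 CPM with DMSO. Of 10 basal markers 3 passed the expression filter, and the defining TP63 and KRT5 had 0 counts and 1 count in all 6 libraries together. The summed basal level was 38.6 to 40.2 CPM with R1881 and 33.3 to 35.6 CPM with DMSO. Of 12 stromal markers 7 passed the filter and 3 were at 0 counts in all 6 libraries. They summed to 205.8 to 243.9 CPM with R1881 and 222.3 to 239.5 CPM with DMSO, of which FN1 made up 147 CPM and 145.1 CPM on average, VIM 38.9 CPM and 42.4 CPM, and COL1A1 24.9 CPM and 28.3 CPM. DCN, a fibroblast marker, averaged 0.0998 CPM with R1881 and 0.0964 CPM with DMSO. Of 12 leukocyte markers none passed the filter, 6 including CD3E were at 0 counts, and their sum was 0.814 to 0.92 CPM with R1881 and 0.647 to 0.977 CPM with DMSO. By these markers the libraries match their label of prostate cancer cells of luminal type.

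Androgen response elements pair the 6-base motifs AGAACA and TGTTCT around a gap of 3 bases. These letters were searched for on both strands of the RefSeq promoter windows on GRCh38.p14, which run from 250 bases before to 50 bases after the start of each gene, with up to 3 mismatches in the 12 fixed bases. A window was found for 11042 of the 15519 genes tested. Of 134 windows of genes that R1881 raised at least 2-fold in F2, 12.7% held such a pair, against 5.58% of 9796 windows of genes that were not called. Over all raised genes the share was 5.95% of 773 windows, over lowered genes 5.5% of 473, over all tested genes 5.61%, and 10.8% over all 35116 RefSeq windows. The single motif AGAACA, which also lies inside a perfect pair, was in 15.7% of the windows of genes raised at least 2-fold and in 8.79% of those not called. Among the genes of the gene lists that were raised at least 2-fold, windows that held a pair included those of KLK3, KLK2, TRPM8 and FKBP5. Not every chromosome was considered for these examples. The stretches around the pair are shown because all 4 genes are followed in the results. Capitals mark the pair with its gap, read 5′ to 3′ on the strand of the gene.
KLK3, chr19:50854665-50854914, plus strand: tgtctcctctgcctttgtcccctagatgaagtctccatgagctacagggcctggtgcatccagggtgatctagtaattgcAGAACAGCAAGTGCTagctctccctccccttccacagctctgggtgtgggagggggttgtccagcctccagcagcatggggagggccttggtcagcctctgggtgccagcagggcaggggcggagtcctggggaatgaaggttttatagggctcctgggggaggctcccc
KLK2, chr19:50873189-50873438, plus strand: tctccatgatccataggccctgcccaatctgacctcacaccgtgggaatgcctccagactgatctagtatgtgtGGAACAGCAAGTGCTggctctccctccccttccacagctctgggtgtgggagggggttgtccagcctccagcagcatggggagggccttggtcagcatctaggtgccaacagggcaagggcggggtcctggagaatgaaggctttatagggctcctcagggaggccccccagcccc
TRPM8, chr2:233917139-233917233, plus strand: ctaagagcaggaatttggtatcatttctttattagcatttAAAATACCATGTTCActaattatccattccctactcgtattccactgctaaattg
FKBP5, chr6:35728748-35728833, minus strand: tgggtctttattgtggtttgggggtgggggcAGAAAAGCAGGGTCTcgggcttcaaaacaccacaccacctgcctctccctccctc
The pair of KLK3 begins 170 bases before the start and differs from the searched letters at 2 positions. That of KLK2 begins 176 bases before the start with 3 mismatches, and from KLK3 to KLK2 the sites differ by A1G, counted from 1 at the 5′ end of the pair. The pairs of TRPM8 and FKBP5 begin 194 and 219 bases before the start, each with 3 mismatches. A match of letters does not show that the receptor binds there.

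R1881 changed 1611 of 15519 genes tested in F2, which is 10.4% (edgeR quasi-likelihood test, Benjamini-Hochberg adjusted p under a threshold of 0.05). Of these, 993 rose (6.4%) and 618 fell (3.98%). Most changes were small, with a median log2 fold change of 0.44 among raised and -0.39 among lowered genes, where the median over all genes was -0.01. The response was lopsided in size, since 206 genes rose at least 2-fold (1.33%) and 64 fell that far (0.412%), and 85 rose at least 4-fold against 9 that fell that far. At least 8-fold changes numbered 42 upward and 3 downward. R1881 and DMSO libraries did not overlap in 978 of the raised genes (98.5%) and 603 of the lowered genes (97.6%). Over all genes tested, 12.3% had every R1881 library above every DMSO library and 11.2% had it below. Of the raised genes 88 averaged under 1 CPM with DMSO, and of the lowered genes 13 did. Protein-coding genes made up 919 of the raised and 571 of the lowered genes, and long noncoding RNAs 56 and 41. Of the 15519 genes tested, 12465 were protein-coding and 2288 were long noncoding RNAs, so the latter were called less often than their share of tested genes. Same-numbered F2 libraries deviated together, and with the replicate number as a block 2455 genes were called, 1377 upward and 1078 downward. Leaving out each F2 library in turn gave 1217 to 1789 calls.

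**Figure D1:**
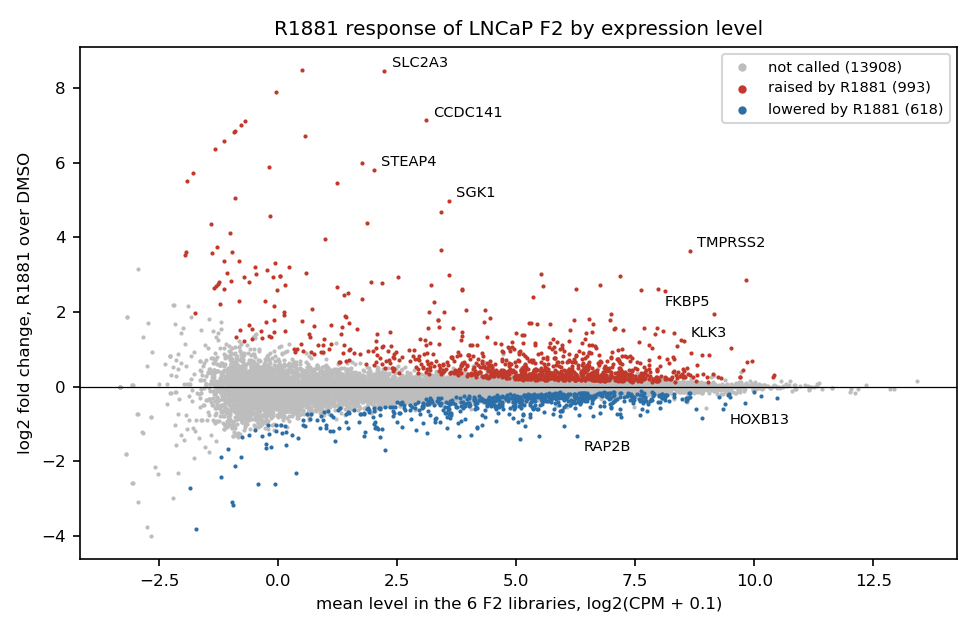
Log2 fold change of R1881 over DMSO in F2 (y axis) against the mean level in the 6 F2 libraries as log2(CPM + 0.1) (x axis), 1 point per gene tested; red points are the 993 genes raised, blue the 618 lowered and grey those not called. The highest points lie at low levels, while TMPRSS2 combines a large rise with a high CPM.

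Several genes were close to silent in deprived F2 cells and were expressed with R1881. CCDC141 stood at 14.9, 19 and 16.4 CPM with R1881 and at 0.121, 0 and 0.216 CPM with DMSO, a log2 fold change of 7.13 (SE 0.31). Its gene overlaps TTN, and reads from that locus may count for either. SLC38A4, an amino acid transporter, stood at 5.86, 7.17 and 6.31 CPM with R1881 and 0.121, 0.0543 and 0.108 CPM with DMSO. STEAP4, a metalloreductase, stood at 6.17, 10.7 and 6.19 CPM with R1881 and 0, 0.163 and 0.216 CPM with DMSO. In all of these genes every R1881 library lay far above every DMSO library. SNAI2, a zinc finger transcription factor, reached 3.79, 3.91 and 5.52 CPM with R1881, against 0, 0.163 and 0.108 CPM with DMSO. The glucose transporter SLC2A3 had 473 counts over the 3 R1881 libraries and 1 count over the 3 DMSO libraries, a scaled ratio of 495.3 with an exact 95% counting interval of 88.5 to 19600. For the acute-phase glycoprotein genes the counts were 78 against 1 in ORM1, a ratio of 81.7 (14.2 to 3267), and 91 against 0 in ORM2, at least 31.8-fold higher with R1881 for a floor of 3 counts over the DMSO group. ORM1 and ORM2 are near-identical paralogs whose reads may be split between them. These intervals cover counting error only.

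The established targets of the receptor rose by large factors at high counts. TMPRSS2, a membrane serine protease, stood at 661, 913 and 645.9 CPM with R1881 and 62.3, 60.7 and 55.7 CPM with DMSO, a log2 fold change of 3.64 (SE 0.14). FKBP5, an HSP90 co-chaperone and a standard readout of the receptor, stood at 398, 455 and 438 CPM with R1881 and 76.7, 61.5 and 72.6 CPM with DMSO, 2.62 (SE 0.09). The groups were apart by several-fold in both genes. PMEPA1, which dampens TGF-beta signalling, stood at 223, 308 and 237 CPM with R1881 and 31, 35.1 and 32.5 CPM with DMSO. SLC45A3, a prostate-enriched membrane transporter, stood at 303, 394 and 313 CPM with R1881 and 53.1, 61.3 and 54.9 CPM with DMSO. TRPM8, the cold-sensing ion channel, stood at 7.03, 8.36 and 7.85 CPM with R1881 and 1.39, 1.25 and 0.755 CPM with DMSO, a log2 fold change of 2.78 (SE 0.18). In TMPRSS2, PMEPA1 and SLC45A3 the second R1881 replicate was the highest library.

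Most tested genes for secreted products of luminal cells rose. The lists of genes by function, this one included, were chosen with earlier results of these data known. Their shares are descriptions and not independent tests. Of 12 listed genes 9 were tested, of which 6 rose (66.7%), 1, PLA2G2A, a secreted phospholipase, fell, and 2 were not called, with a median of 0.78. KLK3, which encodes prostate-specific antigen, stood at 440.4, 511 and 588 CPM with R1881 and 188, 228 and 239 CPM with DMSO, a log2 fold change of 1.23 (SE 0.20). KLK2, a related protease, stood at 797, 883 and 1019 CPM with R1881 and 201, 249.7 and 253 CPM with DMSO, 1.94 (SE 0.33). Both groups kept apart in both genes. The 2 proteases are close paralogs, and some reads may be counted for the wrong one. KLK4 and KLK15 rose by 0.78 and 0.68. The fall of PLA2G2A, -0.21 (SE 0.06), lost its call without DMSO replicate 1 or 2 or without R1881 replicate 2 or 3.

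Of 101 androgen response genes 100 were tested, and 70 rose and 0 fell (70% against 6.4% of all genes), with a median of 0.47. At an unadjusted p under 0.05, 76 rose and 3 fell, and DESeq2 called 71 upward and 1 downward. Leaving out an F2 library gave 60 to 70 rises, with 2 falls without R1881 replicate 1 and 1 without R1881 replicate 2, and the replicate block gave 75 rises and 1 fall. Beyond those above, SGK1, a steroid-induced kinase, stood at 16.2, 29 and 23.8 CPM with R1881 and 0.786, 0.543 and 0.862 CPM with DMSO, 4.97 (SE 0.32). The transcription factor MAF stood at 76.9, 98.9 and 70.3 CPM with R1881 and 11.7, 11.8 and 6.84 CPM with DMSO, 3.03 (SE 0.20). In both genes the lowest R1881 library was several times the highest DMSO library. ELL2, an elongation factor, rose by 1.69, the drug and prostaglandin exporter ABCC4 by 1.55, the kinase CAMKK2 by 1.47, the condensin subunit NCAPD3 by 1.43 and the stress-response gene NDRG1 by 1.21. Members that did not pass included AZGP1, at 0.07, and SCD, at -0.08. DNAJB9, a chaperone of the endoplasmic reticulum, had 24.4, 29.3 and 48.5 CPM with R1881 and 16.7, 15.2 and 23.4 CPM with DMSO, and its log2 fold change of 0.88 missed the threshold at an adjusted p of 0.0629.

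**Figure D2:**
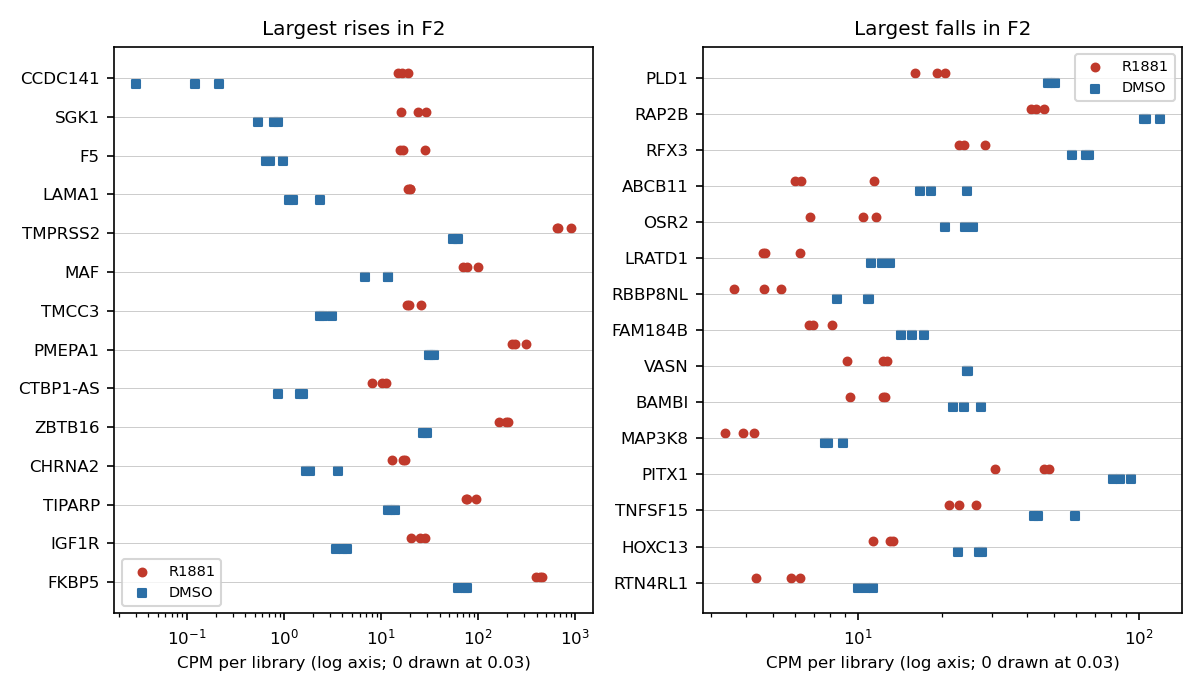
CPM in each F2 library (x axis, log scale, 0 drawn at 0.03) for genes with the largest rises (left) and the largest falls (right) among genes averaging at least 5 CPM whose groups did not overlap; red circles are R1881 libraries and blue squares DMSO libraries. The falls are smaller than the rises, from PLD1 at -1.41 to RTN4RL1 at -0.97 in log2 fold change.

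Among genes averaging at least 5 CPM whose groups did not overlap, the largest fall was that of PLD1, so the 9 falls of at least 4-fold counted above lie outside this set. The phospholipase PLD1 stood at 19.2, 16 and 20.5 CPM with R1881 and 47.6, 49 and 50.4 CPM with DMSO, a log2 fold change of -1.41 (SE 0.11). RAP2B, a small GTPase, stood at 45.9, 41.4 and 43.3 CPM with R1881 and 119, 104 and 106 CPM with DMSO, -1.34 (SE 0.07). The transcription factor RFX3 stood at 23, 23.9 and 28.4 CPM with R1881 and 57.9, 65.2 and 66.8 CPM with DMSO, -1.34 (SE 0.08). In all of these genes every R1881 library lay below every DMSO library. ABCB11, the bile salt export pump, fell by -1.33, the factor OSR2 by -1.29, LRATD1 by -1.24, VASN, a TGF-beta trap, by -1.11, the kinase MAP3K8 by -1.07, the homeobox factors PITX1 and HOXC13 by -1.07 and -1.04, and the cytokine TNFSF15 by -1.05.

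Of 17 genes listed as androgen repressed, all were tested, and 5 fell (29.4% against 3.98% of all genes) and 1 rose, with a median of -0.26. With the replicate block 9 fell and 2 rose, and without DMSO replicate 1, R1881 replicate 2 or R1881 replicate 3 the falls numbered 3. SLC30A10, a manganese transporter, stood at 2.93, 2.61 and 1.72 CPM with R1881 and 6.17, 6.03 and 6.36 CPM with DMSO, -1.35 (SE 0.21). BAMBI, a decoy receptor for TGF-beta ligands, stood at 12.3, 12.5 and 9.38 CPM with R1881 and 24, 27.6 and 21.8 CPM with DMSO, -1.10 (SE 0.13). Neither gene overlapped between the groups. MET, a receptor tyrosine kinase, fell by -0.39, a call lost without DMSO replicate 1 or 2 or R1881 replicate 2 or 3. TMEFF2, a transmembrane protein of the prostate, went against the name of the list, at 26.8, 21 and 15.3 CPM with R1881 and 10.8, 6.9 and 5.34 CPM with DMSO, 1.46 (SE 0.25). The androgen-clearing enzymes UGT2B15 and UGT2B17, which are paralogs, had values of -0.26 and -0.21 that did not pass, and MYC had -0.17.

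Of 26 tested genes for the receptor and its cofactors, 6 rose (23.1%) and 5 fell (19.2%). FOXA1, a pioneer factor, had 0.08 (edgeR adjusted p = 0.66). GRHL2, a pioneer factor of epithelial cells, stood at 336, 405 and 373 CPM with R1881 and 115, 131 and 131 CPM with DMSO, 1.57 (SE 0.08). PIAS1, a SUMO ligase that binds the receptor, rose by 0.68, and the ETS factor SPDEF by 0.59. HOXB13, a homeobox partner of the receptor, stood at 536, 544 and 459 CPM with R1881 and 776, 835 and 736 CPM with DMSO, -0.61 (SE 0.07). GATA2, which opens chromatin for the receptor, stood at 177, 166 and 133 CPM with R1881 and 232, 255 and 240.5 CPM with DMSO, -0.61 (SE 0.08). Every R1881 library of HOXB13 and GATA2 lay below every DMSO library. The coactivator NCOA3 fell by -0.41 and the corepressor CTBP1 by -0.38. NCOR1, another corepressor, rose by 0.23, a call lost without DMSO replicate 1 or 3 or R1881 replicate 2 or 3.

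In the TIF1 family, TRIM24 rose by 0.45 (SE 0.07) beside TRIM33, TRIM28 had -0.16 and TRIM66 had -0.05. No member fell; 1 did at an unadjusted p under 0.05, with the replicate block and without R1881 replicate 1, and 0 did with DESeq2. The series title also names ubiquitination of histone H2B. Of 15 tested genes for that modification 1 rose, CDC73 of the PAF1 complex, and 1 fell, LEO1 of the same complex. That is 6.67% each, near the 6.4% raised and 3.98% lowered over all genes. CDC73 was not called without DMSO replicate 1 or R1881 replicate 2, and LEO1 was not called without any 1 of the 6 libraries. The ligases RNF20 and RNF40 had 0.02 and -0.07. Among 15 receptor chaperones 1 rose, FKBP5 (6.67%, near the 6.4% of all genes), and 0 fell. DESeq2 gave the same counts. At an unadjusted p under 0.05, 2 rose and 0 fell, and 3 rose with the replicate block and 2 without R1881 replicate 1.

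Genes that androgen and glucocorticoid receptors share as targets responded strongly. Of 18, 11 rose (61.1%) and 0 fell, with a median of 0.92; 1 fell at an unadjusted p under 0.05, 0 with DESeq2 and 2 with the replicate block. ZBTB16, a zinc finger repressor, stood at 164, 195 and 202 CPM with R1881 and 27, 28.6 and 29.8 CPM with DMSO, 2.72 (SE 0.11). TIPARP, a mono-ADP-ribosyltransferase, stood at 76.1, 95.4 and 74.6 CPM with R1881 and 14.1, 11.7 and 12.7 CPM with DMSO, 2.68 (SE 0.13). The clock gene PER1 stood at 49.3, 52 and 38.9 CPM with R1881 and 17.8, 17.7 and 16.2 CPM with DMSO, 1.44 (SE 0.11). None of these 3 overlapped between the groups. In the circadian clock list of 17, PER1, CRY2 and NR1D2 rose (17.6%) and DBP fell (5.88%), against 6.4% and 3.98% of all genes. The rises numbered 1 without DMSO replicate 1, DMSO replicate 3 or R1881 replicate 2. The fall was lost without DMSO replicate 2 or 3 or R1881 replicate 2 or 3, while 3 fell with the replicate block.

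**Figure D3:**
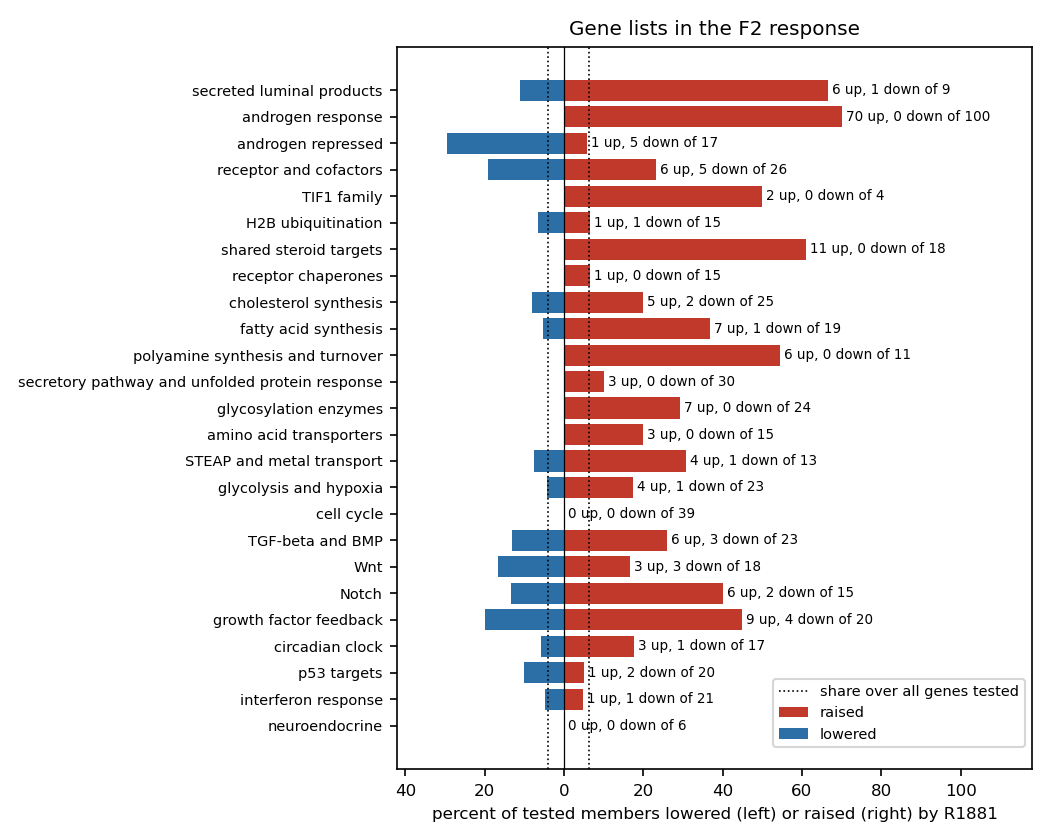
Percent of tested members that R1881 raised (red, to the right) or lowered (blue, to the left) in F2, for each gene list; the dotted lines mark the shares over all 15519 genes, 6.4% raised and 3.98% lowered. The androgen response, secreted product and shared steroid lists reach 61.1% to 70% raised, while the cell cycle and neuroendocrine lists have none called. The lists were chosen with earlier results of these data known.

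Lipid and other biosynthetic genes rose in part. In cholesterol synthesis 5 of 25 rose (20%) and 2 fell. SCAP, which escorts sterol-regulated transcription factors, stood at 162, 178 and 168 CPM with R1881 and 123, 123 and 129 CPM with DMSO, a log2 fold change of 0.44 (SE 0.06). SREBF1, which encodes such a factor, fell by -0.38 and HSD17B7, a sterol reductase, by -0.30. Those falls numbered 1 without any 1 of the DMSO libraries or of R1881 replicates 2 and 3. In fatty acid synthesis and handling 7 of 19 rose (36.8%) and 1 fell, and 2 fell with the replicate block. MBOAT2, an acyltransferase, stood at 189, 242 and 246 CPM with R1881 and 79.1, 74.5 and 81.9 CPM with DMSO, 1.52 (SE 0.10). The elongase ELOVL7 rose by 1.27 and the acyl-CoA synthetase ACSL3 by 1.08, while ACSL1, of the same enzyme family, fell by -0.35. Medians of both lists were near that of all genes, at 0.05 and 0.01.

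Of 11 polyamine genes 6 rose (54.5%) and 0 fell, none at an unadjusted p under 0.05 or with DESeq2, and 3 rose without R1881 replicate 2. AMD1, which makes the aminopropyl donor, stood at 952, 933 and 1111 CPM with R1881 and 740.1, 654 and 793 CPM with DMSO, 0.45 (SE 0.06). ODC1, the entry enzyme, rose by 0.34, the spermine synthase SMS by 0.40 and SAT1, which acetylates polyamines for export, by 0.65, where SAT1 was not called without DMSO replicate 3 or R1881 replicate 2. Of 24 glycosylation enzymes 7 rose (29.2%) and 0 fell, also 0 at an unadjusted p under 0.05 and with DESeq2, and 4 rose without R1881 replicate 3. The sialyltransferase ST6GALNAC1 stood at 29.7, 37.2 and 30.7 CPM with R1881 and 8.1, 7.77 and 7.92 CPM with DMSO, 2.04 (SE 0.13). CSGALNACT1, which starts chondroitin sulfate chains, rose by 2.68 and UAP1, which makes the sugar donor UDP-GlcNAc, by 0.91. Of 30 genes of the secretory pathway and unfolded protein response 3 rose (10%, against 6.4% of all genes) and 0 fell. With the replicate block 10 rose and 2 fell, and DESeq2 called 5 and 0. An unadjusted p under 0.05 was reached by 10 and 0, and 6 rose without R1881 replicate 1. ERN1, the stress sensor IRE1, rose by 0.92 (SE 0.18). In this list NT3 had 11 rises, where R1881 raised 8% of all genes in NT3. The response was lower in F2 than in NT3 for 22 of the 30, with a median difference of -0.09. Over all genes it was lower for 7929 of 15519. The test of that difference called 0 genes in all, so it does not bear on this list.

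Among transporters, 3 of 15 tested amino acid carriers rose (20%, against 6.4% of all genes), SLC38A4, SLC36A1 and SLC43A1, and 0 fell. The falls numbered 1 at an unadjusted p under 0.05, 1 with DESeq2 and 3 with the replicate block. In the STEAP and metal transport list 4 of 13 rose (30.8%), STEAP4 by 5.81 and STEAP2, SLC39A6 and STEAP1 by 0.25, 0.22 and 0.21. SLC30A10 fell (7.69%, against 3.98% of all genes). Without DMSO replicate 1 or 3 or R1881 replicate 2 or 3, STEAP1 and STEAP2 were not called and the rises numbered 2. SLC43A1 was not called without DMSO replicate 1 or 2 or R1881 replicate 3. Of 23 glycolysis and hypoxia genes 4 rose (17.4%), among them SLC2A3, NDRG1 and VEGFA. EGLN3, an oxygen-sensing hydroxylase, fell by -0.83 and was the only fall (4.35%, near the 3.98% of all genes). In this list 2 fell without DMSO replicate 2, R1881 replicate 1 or R1881 replicate 2, and VEGFA was not called without DMSO replicate 2 or R1881 replicate 3.

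Growth factor and developmental signalling genes moved in both directions. Of 20 tested genes for growth factor receptors and their feedback 9 rose (45%) and 4 fell (20%), and 2 fell without DMSO replicate 2 or R1881 replicate 3. IGF1R, the receptor for insulin-like growth factors, stood at 24.9, 28.4 and 20.5 CPM with R1881 and 4.05, 4.51 and 3.45 CPM with DMSO, 2.62 (SE 0.19). Its adaptor IRS2 stood at 14.5, 23 and 15.8 CPM with R1881 and 3.99, 4.29 and 5.01 CPM with DMSO, 2.01 (SE 0.16), and the adaptor IRS1 rose by 1.42. ERRFI1, a feedback inhibitor of EGFR, stood at 94.9, 142 and 109 CPM with R1881 and 32.9, 32.4 and 34.7 CPM with DMSO, 1.79 (SE 0.15). EGFR rose by 0.73, while ERBB2 and ERBB3 fell by -0.29 and -0.24. ERBB2 was not called without DMSO replicate 2 or 3 or R1881 replicate 1 or 3.

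In TGF-beta and BMP signalling 6 of 23 rose (26.1%) and 3 fell (13%), and 5 fell with the replicate block. The BMP receptors BMPR1B and BMPR1A rose by 2.79 (SE 0.25) and 0.71 (SE 0.06), and the inhibitor SMAD7 fell by -0.56. In the Wnt list of 18, 3 rose and 3 fell (16.7% each, against 6.4% and 3.98% of all genes). The receptor FZD5 stood at 79, 83.3 and 69.3 CPM with R1881 and 34.3, 30.6 and 30.4 CPM with DMSO, 1.28 (SE 0.08). The ligand WNT7B rose by 0.90 and the receptor LGR4 by 0.29, while the receptor FZD4 fell by -0.58, the ligand WNT5A by -0.39 and the ligase RNF43, which removes Wnt receptors, by -0.71. Of 15 Notch genes 6 rose (40%) and 2 fell. The coactivator MAML2 rose by 1.42 (SE 0.28) and the ligand JAG1 by 0.72 (SE 0.15), while JAG2 and LFNG fell by -0.41 and -0.74. Without DMSO replicate 3 the Notch list had 3 rises and 0 falls, without R1881 replicate 3 it had 0 falls, and without DMSO replicate 1 or 2 or R1881 replicate 2 it had 1.

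No cell cycle gene was called among 39 tested. Their log2 fold changes ran from -0.24 to 0.15, 0 rose and 2 fell at an unadjusted p under 0.05, DESeq2 called 0 and 1, the replicate block 0 and 2, and 1 fell without R1881 replicate 2. MKI67, a proliferation marker, stood at 184, 175 and 209 CPM with R1881 and 175, 153 and 185 CPM with DMSO, with overlapping groups. Of 20 p53 targets 1 rose and 2 fell (5% and 10%, against 6.4% and 3.98% of all genes). TNFRSF10B, a death receptor, rose by 0.73, and FAS and PHLDA3 fell by -0.63 and -0.33. The falls numbered 6 with the replicate block and 1 without DMSO replicate 3 or R1881 replicate 3. Of 21 interferon response genes 1 rose and 1 fell (4.76% each), near the shares over all genes. B2M rose by 0.39 and IRF1 fell by -0.82. With the replicate block or without R1881 replicate 2, 2 fell. None of 6 tested neuroendocrine genes was called, also at an unadjusted p under 0.05 and with DESeq2, and 1 fell with the replicate block. Of the 16 luminal markers 8 rose (50%) and HOXB13 fell (6.25%), with 2 falls under the replicate block. None of 3 basal and 7 stromal markers was called, with 0 basal and 1 stromal at an unadjusted p under 0.05 and 0 each with DESeq2; 1 stromal marker fell with the replicate block or without R1881 replicate 2.

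The F2 response was set beside those of the other LNCaP lines, each against its own DMSO libraries, on genes picked in 42D NT3 cells, which share no library with them. In 42D NT3, R1881 raised 440 genes at least 2-fold and lowered 275 (2.86% and 1.79% of 15403 tested). Of the 354 raised genes tested in LNCaP, 250 rose in F2 (70.6%) and 1 fell, with a median log2 fold change of 0.89, against 0.90 in sgT33-5, 0.61 in C2 and 1.09 in NT3. The F2 value was below that of NT3 for 267 of the 354, where over all genes it was below for 7929 of 15519. Of 208 lowered genes, 91 fell in F2 (43.8%) and 1 rose (0 without DMSO replicate 1 or 3 or R1881 replicate 2), with a median of -0.53, against -0.60 in sgT33-5, -0.36 in C2 and -0.66 in NT3. On the androgen response list the medians were 0.47 in F2, 0.38 in sgT33-5, 0.29 in C2 and 0.61 in NT3, and 78 of 100 members lay lower in F2 than in NT3. Counts of called genes were 1611 in F2, 1936 in sgT33-5 (12.5%), 879 in C2 (5.66%) and 2042 in NT3 (13.2%). Of the 993 genes raised in F2, 884 were also raised in NT3 (background 8%), and of the 618 lowered, 441 were also lowered there (background 5.15%). The other 109 and 177 were not called in NT3. The test of the difference between F2 and NT3 called 0 of 15519 genes, so it cannot set these genes apart from the shared ones.

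**Figure D4:**
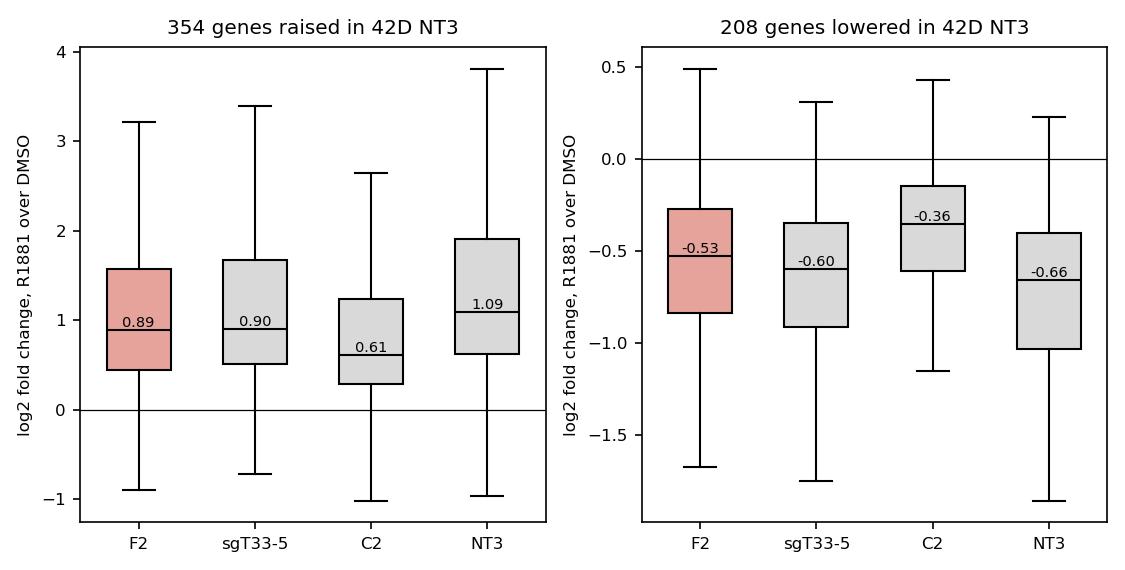
Log2 fold change of R1881 over DMSO (y axis) in F2, sgT33-5, C2 and NT3 for the 354 genes raised (left) and 208 lowered (right) at least 2-fold by R1881 in 42D NT3; boxes span the quartiles, the line with its number is the median, whiskers reach 1.5 box lengths and points beyond are not drawn. The F2 medians, 0.89 and -0.53, lie between those of C2 and NT3.

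The difference in response between F2 and NT3 was tested gene by gene, and 0 of 15519 genes were called (0%), with a lowest adjusted p of 0.053. At an unadjusted p under 0.05, 187 genes were higher and 267 lower in F2. These 454 are fewer than the 776 that a share of 0.05 of all genes would give. DESeq2 called 3 higher and 3 lower, and the replicate block 3 higher and 14 lower. The SE of the difference had a median of 0.116 among genes called in F2. Differences of that order were not detectable here, and some several times larger were not called either. In simulated data the test recovered 78% of 2-fold and 46% of 1.5-fold differences between F2 and NT3. FKBP5 differed by -0.40 (SE 0.12, adjusted p = 0.858), at 398, 455 and 438 CPM in F2 with R1881 and 612, 658 and 607 CPM in NT3 with R1881. With DMSO it stood at 76.7, 61.5 and 72.6 CPM in F2 and 77.9, 75.2 and 78.2 CPM in NT3. The lines did not overlap with R1881 and overlapped with DMSO. ERRFI1 differed by -0.96 (adjusted p = 0.371, over the alternatives 0.00663 to 0.994), and was called with DESeq2 and without F2 R1881 replicate 2. FZD5 differed by -0.62 (adjusted p = 0.154, over the alternatives 1.07e-05 to 0.698), and was called in 5 of 19 alternatives, which were DESeq2, no filter, both fits with the replicate block and without F2 R1881 replicate 2. FKBP5 was called in 1, that with no filter (adjusted p = 0.00653).

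The lowest adjusted p in that comparison, 0.053, was that of GCLC, the catalytic subunit of the enzyme that starts glutathione synthesis. GCLC stood at 24.7, 23.8 and 25.1 CPM in F2 with R1881, against 21.8, 22 and 21.1 CPM in F2 with DMSO, and its log2 fold change of 0.18 (SE 0.08) was not called (adjusted p = 0.151). In the other lines R1881 went with lower values, by -0.41 in sgT33-5, -0.42 in C2 and -0.44 in NT3. NT3 had 30.6, 29.98 and 32.5 CPM with R1881 and 44.5, 37.4 and 44 CPM with DMSO. The R1881 libraries of F2 lay above its DMSO libraries, and those of each other line lay below. The response of GCLC in F2 exceeded that in sgT33-5 by 0.59 (SE 0.11, adjusted p = 0.0368), that in C2 by 0.60 (SE 0.10, adjusted p = 0.0207) and that in NT3 by 0.62 (SE 0.11). Over the alternatives the adjusted p for the difference from NT3 ran from 0.0004 to 0.341, for C2 from 0.000588 to 0.14 and for sgT33-5 from 0.000208 to 0.19, so each call depended on the fit or on single libraries.

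F2 responded more than C2, which carries the same guide in its name, in 8 genes (0.0515% of those tested), and less in 0. At an unadjusted p under 0.05, 302 genes were higher and 173 lower in F2. These 475 are fewer than the 776 that a share of 0.05 of all genes would give. DESeq2 called 21 higher and 5 lower, and the replicate block 46 higher and 8 lower. FKBP5 stood at 398, 455 and 438 CPM in F2 with R1881 and 272, 285 and 292 CPM in C2 with R1881, while with DMSO it stood at 76.7, 61.5 and 72.6 CPM in F2 and 91, 80.5 and 78.2 CPM in C2. The difference in response was 0.85 (SE 0.12, adjusted p = 0.0047), and it stayed between 0.75 and 0.92 and was called in the 19 alternatives other than the 2-fold minimum, which it does not reach. CENPN, a centromere protein, stood at 169, 231 and 206 CPM in F2 with R1881 and 72.5, 83.2 and 95.3 CPM in C2 with R1881, with a difference in response of 1.06 (SE 0.17, adjusted p = 0.0207). OTULINL, a relative of a deubiquitinase, stood at 55.7, 85.4 and 65.7 CPM in F2 with R1881 and 18.6, 16.7 and 18.7 CPM in C2 with R1881, with a difference of 1.34 (SE 0.24, adjusted p = 0.0295). No library of F2 with R1881 reached down to one of C2 with R1881 in these genes. For CENPN and OTULINL this gap in level may include a difference already present with DMSO, which the difference in response leaves out. The other differences were 0.86 in the transcription factor TWIST1, 0.65 in the lipid phosphatase PLPP1, 0.60 in GCLC, 0.55 in the kinase TAOK3 and 0.47 in LRRFIP2. Leaving out a library gave 1 to 10 calls, with 1 call without any 1 of the F2 DMSO libraries, without F2 R1881 replicate 3, or without C2 DMSO replicate 2 or 3 or C2 R1881 replicate 2. The count was 2 without C2 DMSO replicate 1 or C2 R1881 replicate 1, and 5 without F2 R1881 replicate 2 or C2 R1881 replicate 3. FKBP5 was called in each of these, and the other 7 genes lost their call in some.

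Against sgT33-5 the response of F2 differed in 4 genes (0.0258%). At an unadjusted p under 0.05, 747 were higher and 1320 lower. These 2067 are more than the 776 that a share of 0.05 of all genes would give. The count was 153 with DESeq2 (29 higher and 124 lower), 260 with the replicate block and 401 with no filter. CDC42SE2, an effector of the GTPase CDC42, differed by 0.54 (SE 0.08, adjusted p = 0.016), with 67.1, 73.5 and 74.5 CPM in F2 with R1881 against 62.1, 64.1 and 65.8 CPM in F2 with DMSO. In sgT33-5 it fell to 128.5, 112.8 and 122.5 CPM with R1881, against 150.2, 158.6 and 162.7 CPM with DMSO. PAG1, an adaptor that restrains Src kinases, fell in both lines, by -0.46 in F2 and -0.95 in sgT33-5, a difference of 0.49 (SE 0.09). NAPRT, an enzyme of NAD synthesis, fell by -0.39 in F2 (a call lost without DMSO replicate 3 or R1881 replicate 3) and had 0.38 in sgT33-5, a difference of -0.76 (SE 0.14). The fourth was GCLC. These calls are few and unsteady, since leaving out a library gave 0 to 228 calls, with 228 without F2 R1881 replicate 1 and 7 without F2 R1881 replicate 2. The count was 0 without F2 DMSO replicate 1, F2 R1881 replicate 3 or sgT33-5 DMSO replicate 2 or 3, it was 1 without F2 DMSO replicate 2 or 3, sgT33-5 DMSO replicate 1 or sgT33-5 R1881 replicate 1, and it was 2 without sgT33-5 R1881 replicate 2. In the sgT33-5 line, DMSO replicate 3 and R1881 replicate 1 have the lowest mitochondrial shares of the LNCaP libraries, and without both 1 gene was called.

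**Figure D5:**
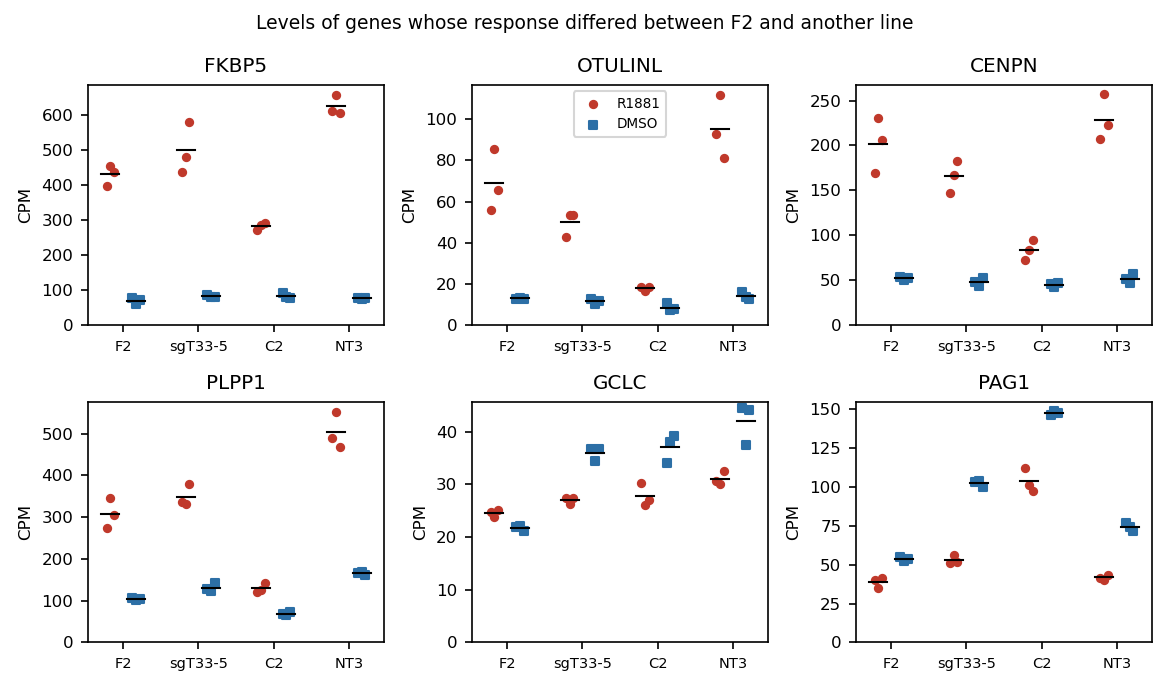
CPM per library (y axis, from 0) of 6 genes whose R1881 response differed between F2 and C2 or sgT33-5, in F2, sgT33-5, C2 and NT3; red circles are R1881 libraries, blue squares DMSO libraries and black lines means of 3. For GCLC the R1881 libraries lie above the DMSO libraries in F2 (24.7, 23.8 and 25.1 against 21.8, 22 and 21.1 CPM) and below them in the other lines.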

How the data were processed

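The labels describe cultures of LNCaP and 42D and sequencing of stranded polyA+ libraries as paired reads of 51 bases. Per the submitters' processing notes, reads were processed with cutadapt and HISAT2 2.1.0 and builds hg38 and GRCh38 are named; the counting tool is not given in the sources used here. The authors deposited raw gene counts, whole numbers that had not been scaled; of 61806 entries 61805 carry a gene ID. The labels do not say whether replicates were separate cultures, so p-values measure the spread between these samples, and intervals cover counting error only.

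The 24 LNCaP libraries were fitted together by group with edgeR 4.0.16 in R 4.3.3 (limma 3.58.1; TMM scaling, filterByExpr, robust 2-sided quasi-likelihood test); p-values over 15519 genes were adjusted by Benjamini-Hochberg and read against 0.05. The 12 libraries of 42D were fitted separately. Interaction contrasts tested differences in response. SE is the log2 fold change divided by the root of F. The script was tested on simulated data: with 200 changed genes, it recovered 94% of 2-fold and 66% of 1.5-fold changes in the F2 contrast (13 false calls), and 78% and 46% in the difference between F2 and NT3 (11 false calls). Simulated libraries were drawn independently, with no deviation shared by replicate number as in the real ones.

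The members and the gene lists were chosen with earlier results of these data known. Genes named are a panel of androgen targets, the 15 highest and 15 lowest called changes (mean of at least 5 CPM, no overlap), the 3 largest called changes per list and direction, the 10 largest called differences, and the 10 called genes of highest CPM; other list members are named as examples chosen after their values were seen, and some genes the rule names are not reported here. F2 libraries of the same number deviated together (correlations 0.157 to 0.293 in 3 pairs, against -0.182 to -0.0234 for other numbers), so the numbers pair them. The main F2 calls and p-values come from the fit without this pairing. Only the fits with the replicate block allow for it. The results were recomputed with RLE size factors, DESeq2 1.42.0, no filter, a 2-fold minimum, the replicate block, fewer libraries in the fit, no mitochondrial genes and each library left out.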

Additional observations from a re-analysis of the deposited data

Results flagged for a closer look

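The R1881 response differed between F2 and C2 in 8 genes by the test of the difference itself (edgeR, adjusted over all genes). On the log2 scale the response in F2 minus that in C2 was 1.34 in OTULINL, 1.06 in CENPN, 0.86 in TWIST1, 0.85 in FKBP5, 0.65 in PLPP1, 0.60 in GCLC, 0.55 in TAOK3 and 0.47 in LRRFIP2. Between F2 and sgT33-5 it differed in 4 genes, by 0.59 in GCLC, 0.54 in CDC42SE2, 0.49 in PAG1 and -0.76 in NAPRT. GCLC is the gene found in both comparisons.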

How the results depend on the processing

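The F2 response kept its count within 1.5 times with RLE size factors, DESeq2, no filter, no mitochondrial genes, F2 libraries alone (1105 calls) and each F2 library left out (1217 to 1789). It came to 270 with the 2-fold minimum and 2455 with the replicate block. Of 125 named genes called, 98 kept the call under all of these but the 2-fold minimum, and no named gene changed direction. For F2 minus NT3, where 0 genes were called, the count was 1 with RLE size factors, 1 without mitochondrial genes, 6 with DESeq2, 19 with no filter, 17 with the replicate block, 34 with the block on the compared libraries alone, and 0 to 3 with a library left out. For F2 minus C2 it was 2 with the 2-fold minimum, 1 with only the compared libraries, 26 with DESeq2, 45 with no filter, 54 with the replicate block, 56 with the block on the compared libraries, and 1 to 10 with a library left out. For F2 minus sgT33-5 it was 0 with the 2-fold minimum, 0 with only the compared libraries, 153 with DESeq2, 401 with no filter, 260 with the replicate block, 288 with the block on the compared libraries, 0 to 228 with a library left out and 1 without both sgT33-5 libraries of low mitochondrial share. The causes were not tested. In these differences not every same-numbered pair correlated above 0.1 (lowest 0.00763, 0.0233 and -0.0316 for NT3, C2 and sgT33-5), so the numbers are not taken as pairs there. Same-numbered pairs still had medians of 0.216, 0.16 and 0.155. Pairs of other numbers reached at most 0.0562, 0.107 and 0.139. The main counts of differences leave this shared deviation out, and only the counts with the replicate block allow for it. Depth limits genes under about 1 CPM, where a few reads set the value.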
